A study of Mus musculus with 72 samples.

Results

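Potassium channel genes were followed in hearts taken 16 months after a single whole-body exposure to ionizing radiation (IR). The members were chosen by name alone: every gene on the arrays whose symbol began with Kcn, further letters and a digit, which gave 89 of the 19505 genes measured with a single symbol. The pattern covers pore-forming subunits, their accessory subunits and 1 non-coding RNA, Kcnq1ot1, which runs antisense to Kcnq1 and encodes no channel subunit. RNA of 72 hearts from female CB6F1/Hsd mice was measured on Clariom S Mouse arrays. The mice were exposed at 100 to 120 days of age.

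Each radiation type had its own sham mice, which were held in the same way without irradiation. Cs-IR was gamma radiation from caesium, given at 40, 80, 120 and 160 cGy (5, 5, 5 and 4 hearts) beside 5 Cs sham hearts. Si-IR was a silicon ion beam of 260 MeV per nucleon and a linear energy transfer of 70 keV/µm, given at 4, 8, 16 and 32 cGy (5 hearts each) beside 4 Si sham hearts. Ti-IR was a titanium ion beam of 1000 MeV per nucleon and 100 keV/µm, given at 3, 6.5, 13 and 26 cGy (5, 4, 5 and 5 hearts) beside 5 Ti sham hearts. The hearts were archived, frozen tissue of animals without tumors, and the study describes the tissue as whole heart. The comparisons ask whether the channel genes of the heart differed between irradiated and sham mice long after the exposure. Where an mRNA differed in this tissue, fewer cells of a type and less RNA per cell cannot be told apart.

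Potassium channels let potassium leave the heart muscle cell and so end the action potential and hold the resting potential. In mouse ventricle the early phase is carried by the fast transient outward current, made by Kcnd2, Kcnd3 and the accessory subunit Kcnip2, and by delayed currents to which Kcna5 contributes. Inward rectifiers of the Kcnj family hold the resting potential, couple the membrane to metabolism or answer acetylcholine, and the Kcnk genes encode leak channels.

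The arrays fell into 2 processing batches named in the labels, 43 arrays in batch 1 and 29 in batch 2. On the first principal component of all genes, with 18.4% of the variance, 41 batch 1 arrays scored from -22.1 to -4.23 and the batch 2 arrays from 4.06 to 26.6. Replicate 4 of Cs 160 cGy (15.02) and replicate 3 of Ti 6.5 cGy (20.5) carried the batch 1 label but scored within the range of batch 2. The labels were kept, and the member calls at these doses, the Cs slopes, the F test and the correlations are also given without these arrays. All Si sham arrays were in batch 2 and all Cs 160 cGy arrays in batch 1. All values below are log2 signals after quantile normalization, with batch taken out where values of single hearts are given. On arrays the number of hearts limits the precision of a value. Of the ventricular cardiomyocyte markers 5 of 6, and of the atrial markers 6 of 6, lay above the controls, so the tissue carried the markers of the heart named in the labels.

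Most of the family did not stand clear of background in the heart. A gene was counted as above the controls when its signal exceeded the 90th percentile of the negative control probe sets of the same array on at least 36 of 72 arrays. This held for 29 of 89 potassium channel genes (32.6%) and for 47% of all genes. Of the 29 members, 17 exceeded the controls on all 72 arrays. A further 12 members exceeded them on 1 to 35 arrays, and 48 exceeded them on no array. A level below the controls does not show that a channel is absent, only that these arrays did not separate it from background. The arrays of both batches were counted together, so a gene that differs between the batches may pass more often in 1 of them.

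By class, of 15 inward rectifiers 7 were above the controls: Kcnj2, Kcnj12 and Kcnj14 of the strong rectifiers, Kcnj3 and Kcnj5 of the acetylcholine-activated channel, and Kcnj8 and Kcnj11 of the ATP-sensitive channels. Of 36 voltage-gated pore genes 8 were above the controls (Kcna1, Kcna5, Kcna7, Kcnd2, Kcnd3, Kcng2, Kcnh2 and Kcnq1), and 22 exceeded them on no array. This class also counts subunits that form no channel by themselves, such as Kcng2 and Kcns3. Among 12 accessory genes Kcnab2, Kcnip2 and Kcnip3 were above the controls, and none of the 5 Kcne genes was. Of the 14 leak channel genes Kcnk1, Kcnk3, Kcnk6, Kcnk10 and Kcnk13 passed, and of the 11 calcium- or sodium-activated or related genes Kcnmb1, Kcnmb3, Kcnmb4, Kcnn1, Kcnn2 and Kcnt2. The number of genes of each class above the controls is plotted by class. Kcnq1ot1 exceeded the controls on fewer than 36 arrays.

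**Figure D1:**
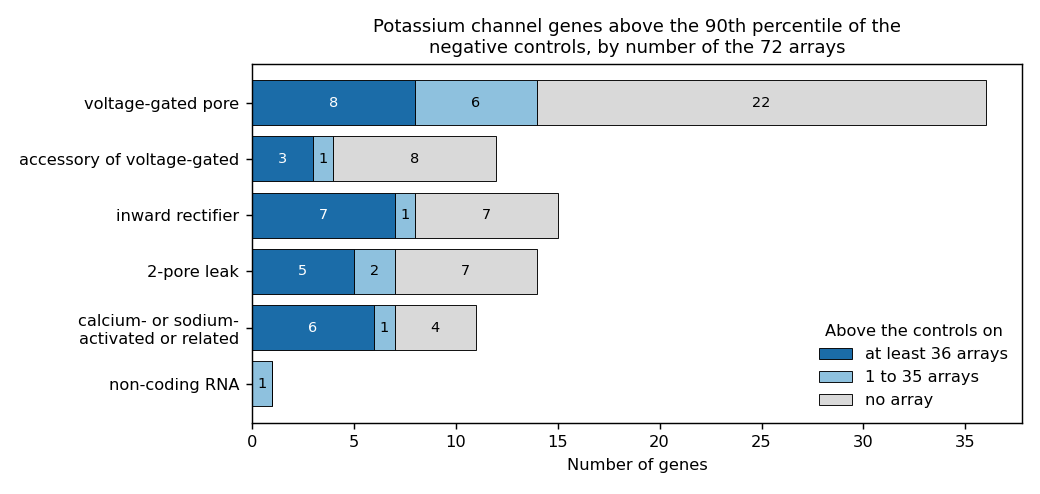
Bars give the number of potassium channel genes per class (horizontal axis), split by the number of the 72 arrays on which the gene exceeded the 90th percentile of the negative controls. Voltage-gated pore genes were the largest class, with 36 genes, of which 8 were above the controls on at least 36 arrays and 22 on none.

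A panel of 24 genes of cardiac repolarization was followed whatever its values. Of these 22 were measured and 15 were above the controls. Levels of different genes come from different probes and are not compared with each other. Across the 15 group means the steadiest member above the controls was Kcnn1, a small-conductance calcium-activated channel, with 6.96 to 7.14. Kcnj11, the pore of the ATP-sensitive channel of heart muscle, had group means from 8.34 to 8.55, Kcnip2 from 9.67 to 9.95 and Kcnk3, the acid-sensitive leak channel TASK-1, from 8.01 to 8.33. The widest spread of group means was that of Kcnmb3, an accessory subunit of the large-conductance calcium-activated channel, with 5.80 at Ti 6.5 cGy and 6.73 in Si sham hearts. The median spread over the 29 members was 0.41 log2 units.

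Against sham, few channel genes differed at any dose. Across 12 dose comparisons, 12 calls were made among 1068 tests of members, 4 higher and 8 lower, in 11 genes (limma, Benjamini-Hochberg adjusted p under 0.25, the threshold of the study's methods). At an adjusted p under 0.05 there were 0 calls. Of the 12 calls 6 fell on members above the controls and 6 on members that were not. For 5 of the latter no fold is given, and Kcne1 is described by its levels. The calls fell at Cs 120 cGy, Cs 160 cGy and Ti 6.5 cGy. At Cs 160 cGy 5 of 89 members were called (5.62%), against 6.91% of all genes, and at Ti 6.5 cGy 6 members (6.74%), against 5.6% of all genes. At Cs 120 cGy 1 member was called, lower, against 0.682% of all genes (0.374% lower). By direction, Cs 160 cGy had 1 member higher and 4 lower (3.12% and 3.78% of all genes), and Ti 6.5 cGy had 3 higher and 3 lower (2.72% and 2.88% of all genes). The share of members called lay near that of all genes. With no batch term in the fit 0 members were called after Cs-IR and 0 after Ti-IR. The share of members and of all genes called is plotted for every comparison.

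No member was called in the other 9 dose comparisons. All genes were called there at 0.22% at Cs 40 cGy and 0.482% at Cs 80 cGy. Silicon ions gave 0.159% of all genes at the 4 cGy dose, 0.128% at 8 cGy, then 0.0205% for 16 cGy and 0.0513% for 32 cGy. Titanium ions gave 0.0103% for 3 cGy, 0.426% for 13 cGy, and 0% for the top dose. At an adjusted p under 0.05, where no member was called, the share of all genes was 0.0615% for Cs 40 cGy and for Si 4 cGy, 0.0205% for Cs 80 cGy, 0.149% for Cs 120 cGy, 0.226% for Cs 160 cGy, 0.041% for Si 8 cGy, 0.0103% for Si 32 cGy, 0.00513% for Ti 6.5 cGy and 0% for the rest.

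Without adjustment (p under 0.05) members passed at every dose, and their share was not tested against that of all genes. They numbered 11 at Cs 40 cGy (12.4%, beside 5.12% of all genes), 11 at Cs 80 cGy (beside 6.87%), 11 at Cs 120 cGy (beside 8.04%) and 10 at Cs 160 cGy (11.2%, beside 13.2%). With Si-IR they were 8 at the lowest dose (8.99%, beside 6.49% of all genes), 8 at 8 cGy (beside 5.16%), 4 at 16 cGy (4.49%, beside 4.49%) and 7 at 32 cGy (7.87%, beside 6.41%). With Ti-IR they were 9 at 3 cGy (10.1%, beside 8.93%), 13 at 6.5 cGy (14.6%, beside 14.1%), 9 at 13 cGy (beside 8.51%) and 6 at 26 cGy (6.74%, beside 7.08%). The doses of a radiation type share their sham hearts, so these counts are not independent of each other. The median difference of the 29 members above the controls lay between -0.13 (Si 8 cGy) and 0.03 (Cs 80 cGy), while the median of all genes above the controls lay within 0.02 log2 units of 0 in each dose comparison.

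**Figure D2:**
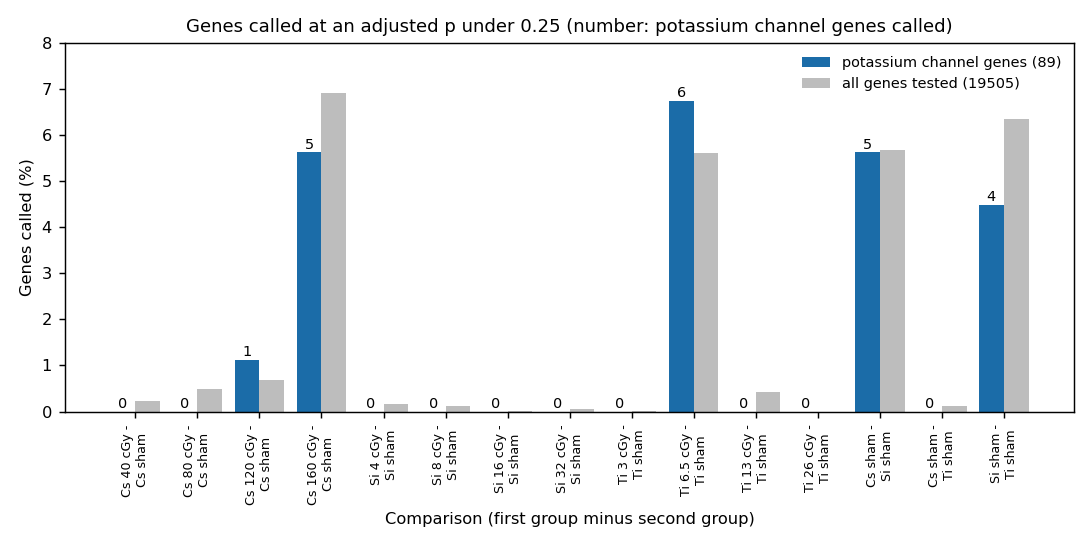
Percent of genes called (vertical axis) in each of 15 comparisons, for the 89 potassium channel genes and for all 19505 genes, with the number of members called above the bar. The highest share of members, 6.74% at Ti 6.5 cGy, stood beside 5.6% of all genes.

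Kcna5, which encodes the voltage-gated channel Kv1.5, was the member called at more than 1 dose: it fell at the top dose of Cs-IR and at 6.5 cGy Ti-IR. At Ti 6.5 cGy its level was 6.18, 6.16, 5.96 and 5.76, against 6.69, 6.55, 6.76, 6.49 and 6.66 in Ti sham hearts. All 4 irradiated hearts lay below all 5 sham hearts. The difference was -0.61 log2 units (SE 0.16, limma adjusted p = 0.121). At Cs 160 cGy Kcna5 had 6.22, 5.80, 6.44 and 6.04, against 6.45, 6.78, 6.32, 6.79 and 6.75 in Cs sham hearts. Here 3 of 4 irradiated hearts lay below the sham range and the groups overlapped (-0.50, SE 0.16, adjusted p = 0.174). Without replicate 3 of Ti 6.5 cGy, which lay with the other batch, the difference was -0.60 (adjusted p = 0.272), and without replicate 4 of Cs 160 cGy it was -0.47 (adjusted p = 0.275), so neither call held without these arrays. The call at Ti 6.5 cGy was also lost without replicate 1 (adjusted p = 0.259) or replicate 3 (adjusted p = 0.292) of the Ti sham hearts. The call at Cs 160 cGy was also lost without Cs sham replicate 2 (adjusted p = 0.274) or 4 (0.279) and without replicate 2 of the irradiated hearts (0.327).

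At other doses Kcna5 had values that did not pass. At Ti 13 cGy it had 5.85, 6.06, 6.31, 6.29 and 5.95, also below every Ti sham heart, and the difference of -0.54 (SE 0.15, adjusted p = 0.254) lay just outside the threshold. At Ti 26 cGy the mean was 6.58 ± 0.39 (SD, n = 5), close to 6.63 ± 0.11 in Ti sham hearts. At Cs 80 cGy the difference was -0.44 (adjusted p = 0.475). After Si-IR all 4 differences were above 0, between 0.09 and 0.26, and none was called. Unirradiated hearts differed in Kcna5 as well, without a call. The difference was 0.38 for Cs against Si sham hearts (limma adjusted p = 0.318). For Si against Ti sham hearts it was -0.40 (adjusted p = 0.269). In the fit of all 72 arrays the mean was 6.24 in Si sham hearts, beside 6.12 at Cs 160 cGy and 6.04 at Ti 6.5 cGy. A straight line over Cs dose gave -0.30 log2 units per 100 cGy for Kcna5 (limma adjusted p = 0.223), and Kcnd1, which is not above the controls, was also called on this line (adjusted p = 0.163). These 2 members compare with 1.55% of all genes called on the Cs line, and without replicate 4 of Cs 160 cGy 1 member had a called slope. On the Si and Ti lines no member was called, beside 0% of all genes. With a curve (B-spline) in place of a line Kcna5 was called over Ti dose (adjusted p = 0.167, beside 1.06% of all genes) and Kcnd1 over Cs dose (adjusted p = 0.162, beside 4.09% of all genes).

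The upstream sequence of Kcna5 is shown because it was called under both Cs-IR and Ti-IR, that of Kcnj2 because it is the inward rectifier that was called, and that of Kcnd2 because it had the largest difference of the transient outward channel genes and its level went with the clock score described below. Each is the stretch of 250 bases before the RefSeq start (GRCm38.p6), read 5′ to 3′ on the strand of the gene. Capitals mark the E-box CACGTG, the motif bound by the activators of the molecular clock, which reads the same on both strands.
Kcna5, chr6:126535556-126535805, minus strand: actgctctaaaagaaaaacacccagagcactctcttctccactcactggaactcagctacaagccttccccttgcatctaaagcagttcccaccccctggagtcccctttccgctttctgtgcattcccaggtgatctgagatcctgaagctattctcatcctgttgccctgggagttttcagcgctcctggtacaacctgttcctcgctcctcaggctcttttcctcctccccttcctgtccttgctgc
Kcnj2, chr11:111065914-111066163, plus strand: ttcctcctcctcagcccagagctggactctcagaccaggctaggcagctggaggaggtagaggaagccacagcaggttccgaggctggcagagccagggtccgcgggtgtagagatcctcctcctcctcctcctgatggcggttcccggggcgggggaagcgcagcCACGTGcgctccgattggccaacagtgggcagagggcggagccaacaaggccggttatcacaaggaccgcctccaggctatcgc
Kcnd2, chr6:21215096-21215345, plus strand: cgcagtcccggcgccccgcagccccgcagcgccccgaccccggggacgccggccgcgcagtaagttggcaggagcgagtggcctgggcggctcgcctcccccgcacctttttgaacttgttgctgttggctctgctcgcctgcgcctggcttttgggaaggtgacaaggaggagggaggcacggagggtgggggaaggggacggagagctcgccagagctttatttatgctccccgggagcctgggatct
Of 32851 RefSeq stretches of this length 6.02% hold an E-box. Of the members 68 matched the RefSeq table, and 5 of them hold it: Kcnab1, Kcne4, Kcnh4, Kcnj2 and Kcnn4. In Kcnj2 it begins 84 bases before the start. The D-box TTATGTAA, bound by the clock output Dbp and searched on both strands, is in 0.819% of all stretches and in 0 of the members. It does not overlap with the E-box. A match is only a run of letters, and a stretch without one says nothing about binding elsewhere.

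Kcnj2, the main pore of the inward rectifier current that holds the resting potential, rose at Cs 160 cGy. Its level was 7.09, 6.97, 7.26 and 6.70, against 6.45, 6.74, 6.72, 6.64 and 6.47 in Cs sham hearts. In 3 of 4 irradiated hearts it lay above every sham heart, and replicate 4 lay within the sham range. The difference was 0.40 log2 units (SE 0.13, limma adjusted p = 0.147), and without replicate 4 it was 0.51 (adjusted p = 0.0899). Without Cs sham replicate 1 it was 0.36 and no longer called (adjusted p = 0.301), and in the values as deposited, before quantile normalization, Kcnj2 differed by -0.03. The lower Cs doses had values on the same side without a call: 0.30 at 40 cGy (adjusted p = 0.837), 0.35 at 80 cGy (adjusted p = 0.444) and 0.17 at 120 cGy. At 40 cGy the hearts had 6.90, 7.03, 6.77, 7.03 and 6.79, all above the sham hearts. These doses share the sham hearts, whose mean for Kcnj2 was the lowest of all 15 groups. After Si-IR the 4 differences lay between -0.14 and -0.01. Kcnj12, which encodes a partner of Kcnj2 in the same current, had differences from -0.25 (Ti 26 cGy) to 0.15 (Ti 6.5 cGy) and no call.

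At Cs 160 cGy 3 members below the controls were also called lower: Kcnab3, an accessory subunit, Kcnd1, a transient outward channel pore, and Kcnn4, a calcium-activated channel of blood and vessel cells. Without replicate 4 of Cs 160 cGy all of them were still called, Kcnab3 with an adjusted p = 0.198, Kcnn4 with 0.246 and Kcnd1 with 0.25, at the edge of the threshold. At Cs 120 cGy Kcne1, the accessory subunit of Kcnq1, was called lower with 5.01, 4.73, 5.05, 4.94 and 5.21, against 5.58, 5.35, 5.57, 6.10 and 5.39 in Cs sham hearts (adjusted p = 0.246). The call was lost in 18 of 24 fits that each left out 1 heart. The groups did not overlap, yet Kcne1 exceeded the controls on 0 of the 5 irradiated and 1 of the 5 sham arrays. Clock genes moved in the same comparisons: at Cs 160 cGy 8 of 9 clock outputs were called higher and 3 of 3 clock activators lower, and at Cs 120 cGy 6 of 9 outputs higher and 3 of 3 activators lower. Over the clock output list, the mean scaled level per heart ran from 0.27 to 1.19 at Cs 160 cGy and from -1.14 to -0.22 in Cs sham hearts. Clock genes also differed at doses where no member was called. Mean Dbp was 10.94 in Si sham hearts and 9.13 at Si 4 cGy. The mean of the activator Arntl was 5.36 in Si sham hearts and 7.59 at Si 4 cGy. In Ti sham hearts it was 7.07, and at Ti 13 cGy 5.75. Of the cell type markers, Myl3 of the ventricular list was called lower and Alas2 of red blood cells higher at Cs 160 cGy. Each is a single gene, which does not show that a cell type changed. The part of these in the channel results was not tested.

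At Ti 6.5 cGy 6 members were called. Kcnt2, a sodium-activated channel, rose, with 6.75, 7.23, 6.07 and 6.45, against 5.77, 6.42, 5.00, 6.32 and 6.04 in Ti sham hearts (0.72, SE 0.25, limma adjusted p = 0.212). The groups overlapped, and replicate 3 of the sham hearts, at 5.00, lay far below the rest. Without that sham heart the difference of Kcnt2 was 0.47 (adjusted p = 0.48), and it was also not called without sham replicate 1 (0.68, adjusted p = 0.356) or irradiated replicate 2 (0.52, adjusted p = 0.506). Kcnt2 had values above sham at the other Ti doses too: 0.47 at 3 cGy, 0.67 at 13 cGy and 0.34 at 26 cGy, none called.

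Kcnmb3 fell at Ti 6.5 cGy, with 5.99, 5.89, 5.31 and 5.86, against 6.04, 6.21, 6.49, 6.09 and 6.37 in Ti sham hearts (-0.47, SE 0.16, adjusted p = 0.199). The groups did not overlap, with a gap of less than the spread within either group. Kcnk10, the stretch-sensitive leak channel TREK-2, fell as well, with 6.02, 5.51, 5.07 and 5.54, against 6.20, 5.70, 6.13, 5.87 and 6.15 in Ti sham hearts (-0.48, SE 0.18, adjusted p = 0.244), and the groups overlapped. Replicate 3 was the lowest irradiated heart for both genes, and it is the array that lay with the other batch. Without it the difference was -0.32 for Kcnmb3 (adjusted p = 0.449), -0.32 for Kcnk10 (adjusted p = 0.509) and 0.90 for Kcnt2 (adjusted p = 0.251), and no call of these genes held. Calls were also lost without Ti sham replicate 1 (adjusted p = 0.277 for Kcnmb3 and 0.417 for Kcnk10), Ti sham replicate 3 (0.417 and 0.448) or Ti 6.5 cGy replicate 2 (0.356 and 0.453). Kcnk10 was lost in 14 of 24 fits that each left out 1 heart. Kcna4, a transient outward channel pore, and Kcnk5, an alkaline-activated leak channel, were called higher but were not above the controls. Without replicate 3 neither was called (adjusted p = 0.348 for Kcna4 and 0.357 for Kcnk5).

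Some markers of other cells were called at Ti 6.5 cGy as well. Of 5 smooth muscle markers Myh11 and Cnn1 were called higher, and the mean scaled level of the list ran from 0.09 to 1.32 at Ti 6.5 cGy and from -0.89 to 0.26 in Ti sham hearts. Of 3 fibroblast markers measured Col1a1 and Col1a2 were called lower, with list levels from -1.52 to 0.60 at Ti 6.5 cGy and from -0.30 to 1.68 in Ti sham hearts. Serpina1a of the liver list was called higher, Cdh19 of Schwann cells and Hey2 of the ventricular list higher and Wt1 of mesothelium lower. These are single genes of their lists and do not show that a cell type changed. No atrial marker was called. Of the clock genes 3 of 9 outputs were called higher and 2 of 3 activators lower at Ti 6.5 cGy. Their part in the channel results was not tested.

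**Figure D3:**
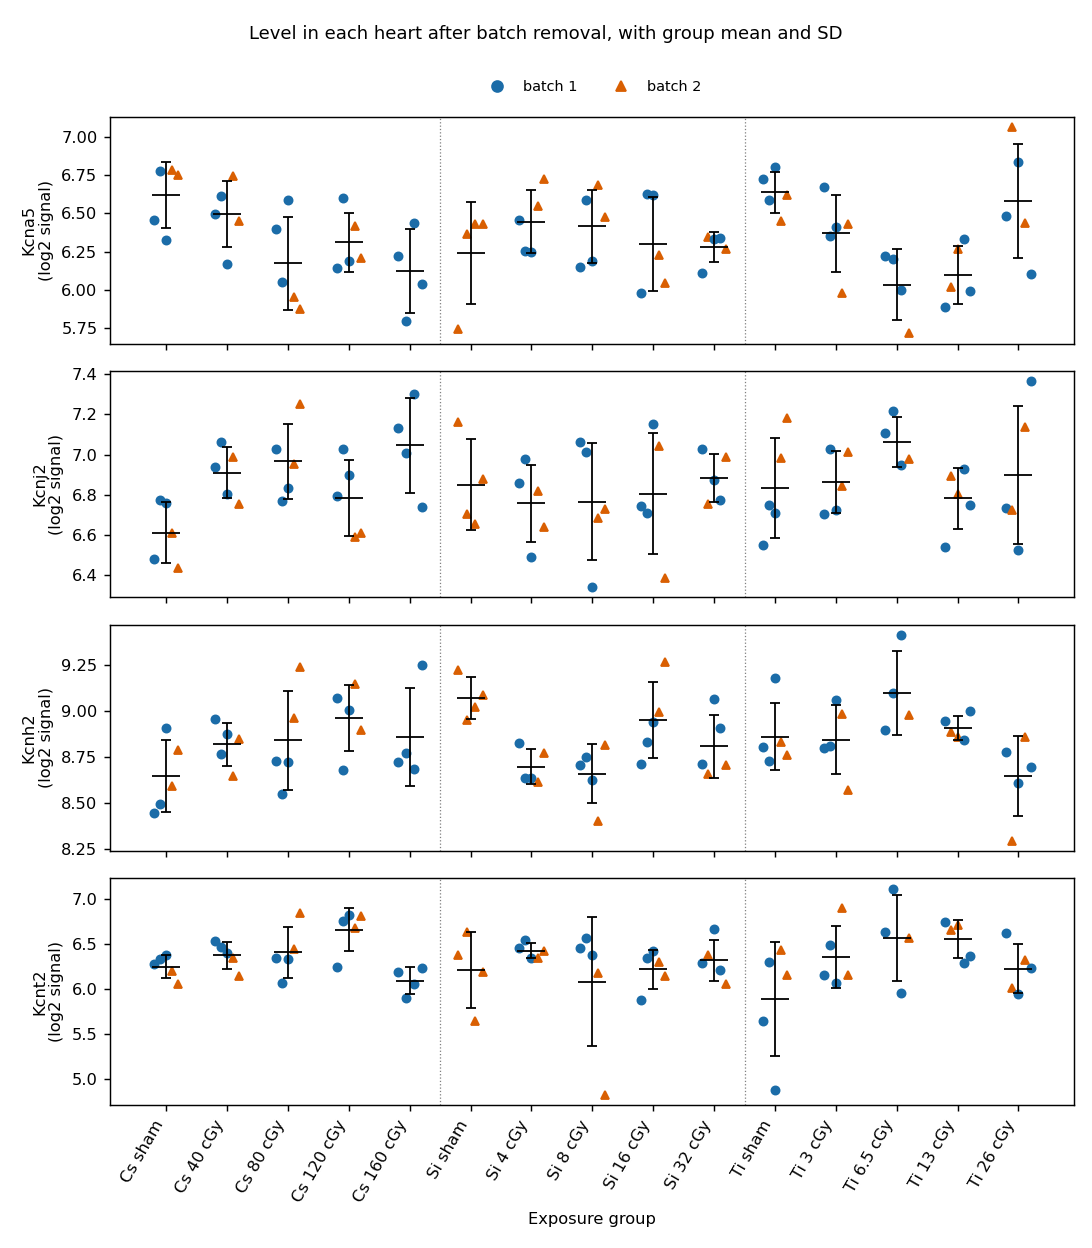
Log2 level of Kcna5, Kcnj2, Kcnh2 and Kcnt2 (vertical axes) in each of 72 hearts by exposure group, after batch removal over all arrays, with the group mean and SD and the labelled batch of each heart. All 4 Kcna5 values at Ti 6.5 cGy lie below the 5 Ti sham values. The Cs sham hearts have the lowest mean of Kcnh2 and of Kcnj2 among the 15 groups, though for Kcnh2 Ti 26 cGy is nearly equal.

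After Si-IR no channel gene was called. Kcnh2, which encodes the pore of the rapid delayed rectifier current, had the lowest difference of the members above the controls within the 4 cGy dose, -0.37 (SE 0.12, limma adjusted p = 0.618), and within the 8 cGy dose, -0.41 (SE 0.12, adjusted p = 0.547). It was -0.12 (adjusted p = 0.999) at 16 cGy, where Kcna1, a voltage-gated pore gene, was lowest with -0.39 (adjusted p = 0.999), and -0.26 (adjusted p = 0.777) at 32 cGy. Its hearts had 8.83, 8.64, 8.63, 8.61 and 8.77 at 4 cGy, against 9.22, 8.95, 9.02 and 9.09 in Si sham hearts. No irradiated heart at 4 cGy reached the sham range, while 0.159% of all genes were called there. Kcnh3 had the smallest p of all members at each of the 4 Si doses, with adjusted p between 0.298 and 0.628, but exceeded the controls on no array. Its mean was 5.02 in Si sham hearts, the highest group mean, and from 4.37 to 4.44 at the Si doses. All Si doses share the Si sham hearts, which came from a single processing batch. Differences of Kcnh3 or Kcnh2 that recur over these doses are therefore not independent of each other. At Si 8 cGy the second smallest p was that of Kcns3 (adjusted p = 0.547), a subunit that forms no channel by itself, at 16 cGy that of Kcnk2 (0.999) and at 32 cGy that of Kcnk12 (0.526), none of them above the controls.

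The genes of the fast transient outward current were not called at any dose. Kcnd2 had its largest difference at Cs 80 cGy, with 7.34, 7.18, 7.25, 7.55 and 7.67, against 6.85, 7.02, 7.28, 6.49 and 6.80 in Cs sham hearts (0.51, 95% interval 0.19 to 0.83, adjusted p = 0.385). Only 1 sham heart reached into the irradiated range. At the other Cs doses the difference of Kcnd2 was between -0.11 and 0.15. Kcnd3 ran from -0.33 (Si 4 cGy) to 0.24 (Cs 120 cGy) and Kcnip2 from -0.28 (Ti 3 cGy) to 0.14 (Si 4 cGy). A p that misses the threshold does not show that these genes were unchanged.

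The delayed rectifier and leak genes gave similar ranges. Kcnq1, the pore of the slow delayed rectifier, had its lowest difference at Ti 26 cGy, with 7.19, 7.25, 7.01, 7.44 and 7.15, against 7.57, 7.47, 7.33, 7.76 and 7.69 in Ti sham hearts (-0.36, 95% interval -0.58 to -0.13, adjusted p = 0.53). Kcnk3 was next by p at that dose (-0.28, SE 0.11), without a call. Kcnj3, the acetylcholine-activated inward rectifier of atrial and nodal cells, was 0.46 above sham at both Cs 80 and Cs 120 cGy and 0.38 at Ti 6.5 cGy without a call. Kcnj8, the pore of the ATP-sensitive channel of vessels, stayed between -0.15 and 0.27 and Kcnj11 between -0.21 and 0.10. The smallest p at Cs 40 cGy was that of Kcng3 (adjusted p = 0.685), which is not above the controls, and at Ti 3 cGy Kcnq1ot1 and Kcnk15 shared an adjusted p of 0.437. At Ti 13 cGy Kcnh4 (adjusted p = 0.264) followed Kcna5. At Cs 120 cGy Kcnt2 had the second smallest p, with a difference of 0.41 (adjusted p = 0.32).

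**Figure D4:**
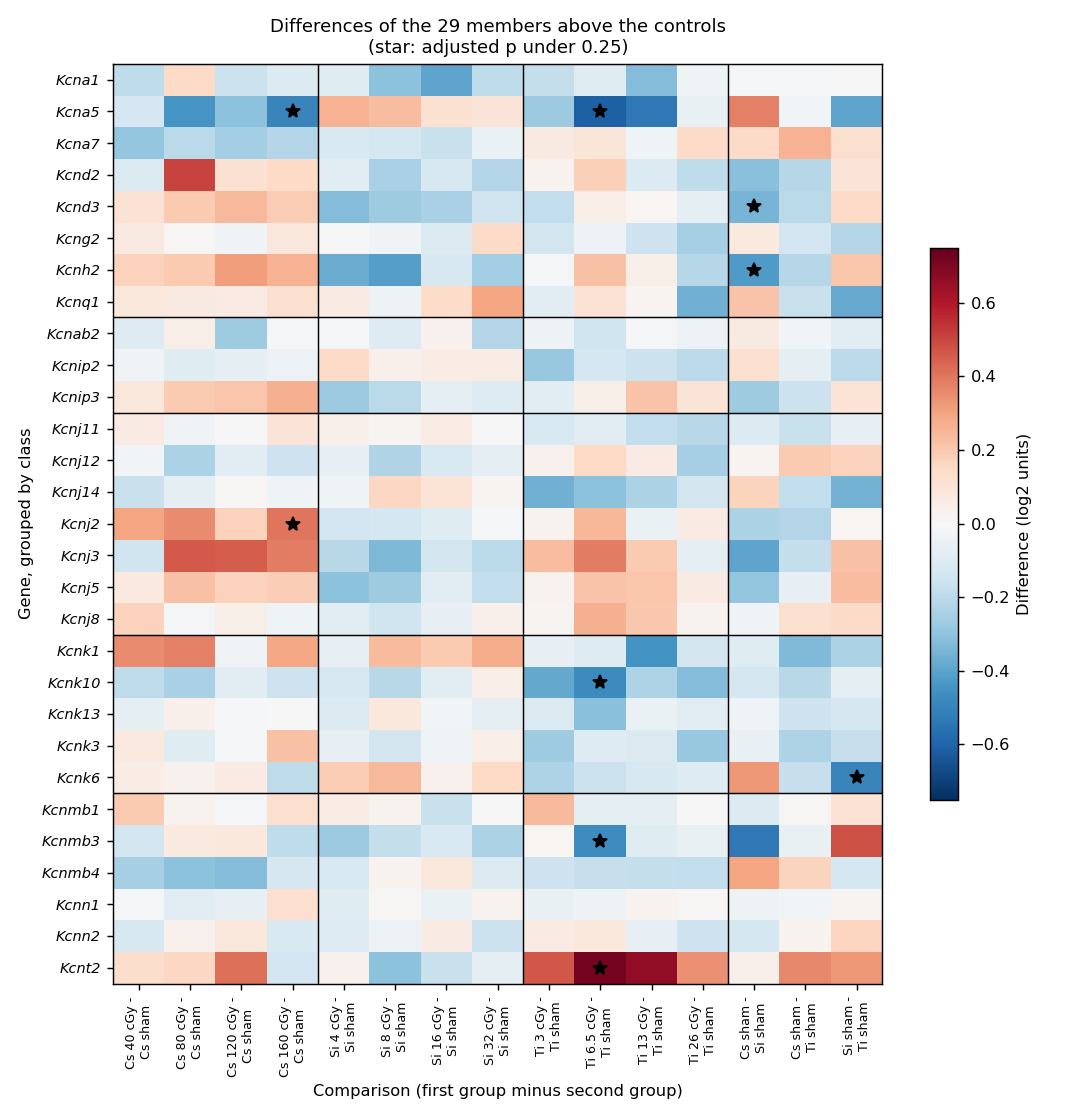
Log2 differences of the 29 members above the controls (rows, by class) in 12 comparisons with sham and 3 between sham groups (columns), red for higher and blue for lower in the first group named. Stars mark calls at an adjusted p under 0.25, which fall on Kcna5, Kcnj2, Kcnk10, Kcnmb3 and Kcnt2 against sham and on Kcnd3, Kcnh2 and Kcnk6 between sham groups.

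Hearts that had received no radiation differed in channel genes as well. Between the Cs and Si sham groups 5 members were called, beside 5.67% of all genes, between Si and Ti sham 4 members, beside 6.35% of all genes, and between Cs and Ti sham 0 members, beside 0.113% of all genes (limma over all 72 arrays). In the last pair 6 members had an unadjusted p under 0.05, beside 8.6% of all genes. Of the 5 members 3 were higher and 2 lower in Cs than in Si sham hearts (3.17% and 2.5% of all genes), and all 4 were lower in Si than in Ti sham hearts (3.42% of all genes). Kcnh2 was lower in Cs sham hearts, with 8.45, 8.49, 8.90, 8.59 and 8.79, against 9.22, 8.95, 9.02 and 9.09 in Si sham hearts (-0.42, SE 0.13, adjusted p = 0.109). Kcnd3 was also lower in Cs sham hearts, with 6.33, 6.44, 6.71, 6.54 and 6.61, against 6.79, 6.73, 7.09 and 6.90 in Si sham hearts (-0.35, SE 0.12, adjusted p = 0.149). For both genes the sham groups did not overlap. In the values as deposited, before quantile normalization, the difference was 0.20 for Kcnh2 and 0.28 for Kcnd3, the other way round. Without Si sham replicate 3 neither was called (adjusted p at most 0.26 for Kcnh2 and 0.513 for Kcnd3 over all hearts left out), and Kcnd3 was also lost without Cs sham replicate 1 or 4. Kcnip4, Kcnk5 and Kcnq1ot1 were called there too, all higher in Cs sham hearts and none above the controls.

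Kcnk6, the leak channel TWIK-2, was lower in Si sham hearts, with 6.0, 5.80, 5.12 and 5.73, against 6.29, 6.31, 6.21, 5.90 and 6.08 in Ti sham hearts (-0.50, SE 0.13, limma adjusted p = 0.0645). Replicate 3 of the Si sham group was the lowest, and without it the difference was -0.32 (adjusted p = 0.418). Kcnh4, Kcnk2 and Kcnip4, all below the controls, were called lower in Si sham hearts as well. In the same pairs of sham groups the clock genes differed: 8 of 9 clock outputs were lower in Cs than in Si sham hearts and 6 of 9 were higher in Si than in Ti sham hearts. The Si sham hearts all lay in batch 2, so their level rests on the batch difference estimated from the other groups.

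Over all 15 groups 7 members varied (limma F test, adjusted p under 0.25), 7.87% of the members beside 6.06% of all genes, and 0 at an adjusted p under 0.05. Of these Kcna5 (adjusted p = 0.117), Kcnk6 (0.14) and Kcnh2 (0.174) were above the controls. Kcnh4, Kcnv2, Kcnip4 and Kcng3 were not. Kcna5 had its highest group mean in Ti sham hearts (6.64) and its lowest at Ti 6.5 cGy (6.04). Kcnh2 had its lowest in Cs sham hearts (8.645), nearly equal to Ti 26 cGy (8.645) and Si 8 cGy (8.658), and its highest at Ti 6.5 cGy (9.10). Without replicate 4 of Cs 160 cGy the test called 10 members and without replicate 3 of Ti 6.5 cGy 7. This test holds differences between the sham groups as well as those with exposure.

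More channel genes were called between the processing batches than at any dose, but these tests differ in power. The batch test drew on all arrays, whereas each dose test set a few irradiated hearts against a few sham hearts. The counts therefore do not show that batch differences were larger than those with dose. Between batch 2 and batch 1, 52 of 89 members were called (58.4%, beside 65.2% of all genes), 29 higher and 23 lower in batch 2 (33.4% and 31.9% of all genes), and 32 at an adjusted p under 0.05 (48.7% of all genes). Of the 29 members above the controls 22 were called, 11 in each direction. The share called among all genes above the controls is not given here, so this count is not read as particular to the members. Higher in batch 2 were Kcnk3 (0.65), Kcnj11 (0.56), Kcng2 (0.50), Kcnip2 (0.48), Kcnq1 (0.43) and Kcnj12 (0.40), all in log2 units. Lower were Kcnt2 (-0.67) and Kcnk10 (-0.40). By contrast Kcnj2 (-0.01, adjusted p = 0.85) and Kcna5 (-0.09, adjusted p = 0.218) differed little, though Kcna5 was still called. As a share of variance, batch took a median of 9.76% in the 29 members and exposure group 18.6%, and batch exceeded group in 10 of the 29. In all genes above the controls the medians were 16.1% for batch and 18.3% for group.

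Some channel genes went together from heart to heart. For 15 pairs the residuals of 72 hearts after group and batch were correlated. A pair set a channel gene beside a partner subunit, a regulator, or an atrial or clock score described below. Kcnj3 and Kcnj5, the subunits of the acetylcholine-activated channel, went together with r = 0.73 and rho = 0.71 (permutation p = 1e-05 for each, the smallest that 100000 permutations can give, adjusted p = 3.75e-05 for r). Within batch 1 r was 0.74 and within batch 2 also 0.74, and without the 2 hearts farthest from the median it was 0.70. Both also went with an atrial score, the mean scaled level of Myl7, Myl4, Sln, Nppa, Bmp10 and Dkk3. The r was 0.80 for Kcnj3 (rho 0.81) and 0.58 for Kcnj5 (rho 0.59), each with permutation p = 1e-05 and without the farthest hearts 0.78 and 0.53. The atrial score of a heart ran from -1.92 to 1.59 within the Ti sham group alone, so hearts of the same group differed widely in it.

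Kcnj8 went with Abcc9, the sulfonylurea receptor that completes its channel (r = 0.60, rho = 0.43, permutation p = 1e-05 for r, adjusted p = 3.75e-05). For Kcnj8 with Abcc9 r was 0.36 within batch 1 (adjusted p = 0.0526, not past 0.05) and 0.75 within batch 2, and 0.49 without the 2 farthest hearts. Kcnj11, which can pair with the same receptor, did not pass (r = 0.10, rho = 0.14, adjusted p = 0.444). Kcnd2 ran against Irx5, a transcription factor known to repress it in mouse ventricle (r = -0.38, rho = -0.34, permutation p = 0.00108, adjusted p = 0.00324). The r was -0.36 in batch 1 (adjusted p = 0.0526), -0.40 in batch 2 (adjusted p = 0.066) and -0.40 without the farthest hearts, so within neither batch did Kcnd2 with Irx5 pass 0.05.

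The clock score, outputs minus activators of the molecular clock, went weakly with Kcnh2 (r = 0.31, rho = 0.27, permutation p = 0.00878, adjusted p = 0.0204) and with Kcnd2 (r = 0.30, rho = 0.33, permutation p = 0.00952, adjusted p = 0.0204). For Kcnh2 r was 0.22 in batch 1, 0.42 in batch 2 and 0.25 without the farthest hearts, and for Kcnd2 it was 0.31, 0.29 and 0.32. Within neither batch did Kcnh2 or Kcnd2 with the clock score pass 0.05, and Kcnh2 did not pass without the farthest hearts. Without the 2 arrays that scored with the other batch, every one of the 15 pairs kept its sign and its side of 0.05 by r, with 0.28 for Kcnh2 and 0.31 for Kcnd2 with the clock score. No pair of Kcnip2 passed: r was -0.02 with the clock score (adjusted p = 0.894), 0.19 with its regulator Klf15 (adjusted p = 0.174) and -0.14 with Kcnd2 (adjusted p = 0.326). For Kcna5 with the atrial score r was -0.24 (adjusted p = 0.0735 for r and 0.0379 for rho), and for Kcnq1 with Kcne1 it was 0.24 (adjusted p = 0.0735), with Kcne1 below the controls on most arrays. For Kcnk3 r was -0.07 with the atrial score and 0.11 with the clock score, neither past the threshold. The sources used here do not state the hour at which each heart was taken.

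**Figure D5:**
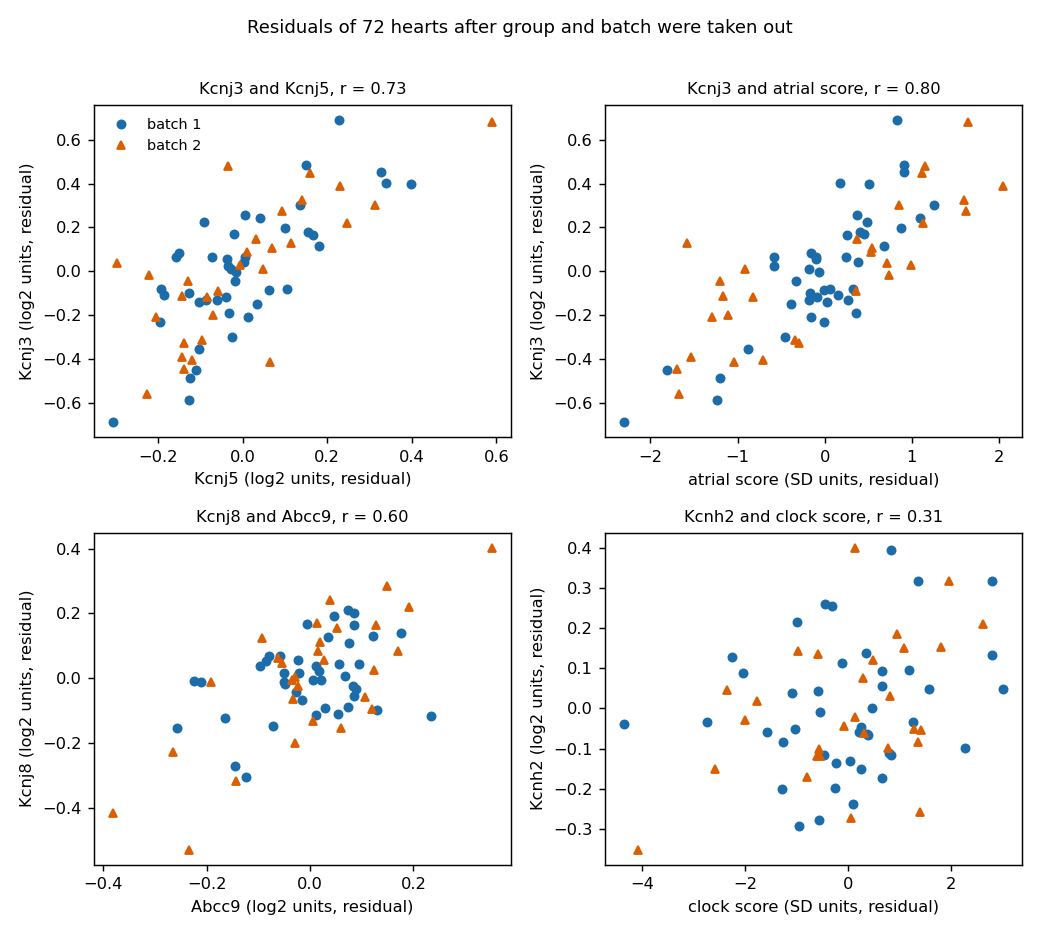
Residual levels of 72 hearts after group and batch were taken out, for Kcnj3 against Kcnj5 and against the atrial score, Kcnj8 against Abcc9 and Kcnh2 against the clock score, with points marked by batch. The points follow a line most closely for Kcnj3 and the atrial score (r = 0.80) and scatter widely for Kcnh2 and the clock score (r = 0.31).

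Of other genes of cardiac excitability 3 were called, each in 1 of the 15 comparisons. Of a list of 38 sodium and calcium channel, gap junction, pump and regulator genes 31 were measured and 22 lay above the controls. Gja1, which encodes the gap junction protein connexin 43, was called lower at Cs 160 cGy (-0.30, SE 0.09, limma adjusted p = 0.118), 1 of the 31 beside 6.91% of all genes. Irx3, a transcription factor of the conduction system, was called higher at Ti 6.5 cGy (0.40, SE 0.13, adjusted p = 0.193), 1 of the 31 beside 5.6% of all genes. Ank2, an adaptor that anchors ion transporters, was lower in Si than in Ti sham hearts (-0.35, SE 0.12, adjusted p = 0.181), 1 of the 31 beside 6.35% of all genes. Gja1 and Irx3 were not refitted without the 2 arrays that scored with the other batch. No other gene of the list was called in the 15 comparisons.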

How the data were processed

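RNA of 72 hearts was measured, 1 animal and 1 array each, and samples were grouped by the labels. The authors deposited log2 values from RMA (version not stated) for 29129 probe sets. Array medians ran from 4.17 to 6.35, so the 22206 transcript-cluster probe sets were quantile normalized again. Control probe sets were left out of all tests. Symbols came from the platform annotation: 19572 probe sets had 1 symbol, 0 several and 2634 none. Where several probe sets named a gene (55 genes), that of highest mean was taken, giving 19505 genes. Background was read from 5222 negative control probe sets of the deposited values.

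Tests used limma 3.58.1 in R 4.3.3. Each radiation type was fitted with group and batch, and sham pairs, the F test and batch came from a fit of all 72 arrays. P-values were Benjamini-Hochberg adjusted over all genes, and calls were made at 0.25, with 0.05 beside it. The script was tested on simulated data. Correlations were tested with 100000 two-sided permutations.

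Named genes were the members called, the 2 members with the smallest p in each comparison and a panel of 24 repolarization genes. The members and lists were chosen with earlier results of these data known. Alternatives covered the batch term, the samples fitted, normalization, filters, thresholds, the replicate block and leaving out each array. Every sample is a separate animal, and the number of hearts limits precision.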

Additional observations from a re-analysis of the deposited data

Results flagged for a closer look

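In 150 groups of 4 or 5 hearts (10 genes, 15 groups) 9 hearts lay far from the rest of their group, where chance gives about 1 in 20 groups. Kcna5 was 5.70 in Si sham replicate 1, against 6.32 to 6.38 in the other Si sham hearts. Kcnt2 was 4.98 in Si 8 cGy replicate 5, against 6.23 to 6.42. Kcnk6 was 6.11 in Si 16 cGy replicate 3, against 5.55 to 5.71. Kcnh2 was 9.31 in Cs 160 cGy replicate 4, against 8.74 to 8.83, and this is a heart whose array lay with the other batch.

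Kcne1, which is below the controls on most arrays, was 4.56 in Cs 160 cGy replicate 2, against 5.51 to 5.70, and 6.22 in Si 16 cGy replicate 4, against 4.97 to 5.25. The antisense RNA Kcnq1ot1 was 3.92 in Cs 120 cGy replicate 1, against 4.86 to 5.15, 4.03 in Si 4 cGy replicate 3, against 4.96 to 5.22, and 4.86 in Ti 3 cGy replicate 1, against 5.42 to 5.61.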

How the results depend on the processing

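Counts of members called depended on the fit. The share of all genes called under each alternative is not given here. The counts in this paragraph and the next are therefore not results about the members apart from other genes. After Cs-IR the 6 calls became 0 with no batch term, batch as a random block, batch 1 arrays only, the 2 compared groups only, values as deposited, array medians aligned or an adjusted p under 0.05, 2 with all 72 arrays and 3 with the replicate block. Leaving out 1 heart gave 3 (without Cs sham replicate 1) to 8. After Si-IR 0 calls became 1 with no batch term, 8 with all 72 arrays, 3 with the 2 compared groups and 37 with values as deposited, and 0 to 4 without 1 heart (highest without Si 16 cGy replicate 4). After Ti-IR the 6 calls became 0 with no batch term, batch 2 arrays only or the 0.05 threshold, 1 with the 2 compared groups, 2 with a random block or without Ti 6.5 cGy replicate 3, whose array lay in the range of batch 2, 3 with all 72 arrays, 10 with medians aligned, 14 with batch 1 only and 27 as deposited. Leaving out 1 heart gave 0 (without Ti sham replicate 1) to 12 (without Ti sham replicate 4). A count under an alternative need not hold the same calls. Without Ti 6.5 cGy replicate 3 none of the 6 original calls held, so the 2 counted there were others.

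The 9 calls between sham groups became 19 with 2 arrays counted to batch 2, 14 with the filter on dim genes, 80 as deposited, 1 with medians aligned, 2 with the replicate block, 2 with the 3 sham groups only and 0 at 0.05, and 2 to 25 without 1 heart (Si sham replicate 3 and 4). The 7 members of the F test became 0 with no batch term, medians aligned or 0.05, 11 with 2 arrays counted to batch 2 and 87 as deposited, and 5 to 14 without 1 heart. The 2 dose slopes became 0 with no batch term, without sham hearts, with the replicate block or at 0.05 and 84 as deposited, and 0 to 4 without 1 heart. The 52 batch calls became 32 at 0.05, and 49 to 56 without 1 heart. The 29 members above the controls became 74 against the control median, 17 against the 95th percentile and 17 if required on all 72 arrays.

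With values as deposited Kcnj2 at Cs 160 cGy was -0.0305, and between Cs and Si sham Kcnd3 was 0.28 and Kcnh2 0.20. Within batch 1 r was 0.36 for Kcnj8 with Abcc9, -0.36 for Kcnd2 with Irx5, 0.22 for Kcnh2 and 0.31 for Kcnd2 with the clock score. Within batch 2 it was -0.40 for Kcnd2 with Irx5, 0.42 for Kcnh2 and 0.29 for Kcnd2 with the clock score, and without the 2 farthest hearts 0.25 for Kcnh2. These had an adjusted p above 0.05. The sign turned for Kcnip2 with the clock score (0.13 in batch 1, 0.0549 without the 2 farthest hearts), Kcnj11 with Abcc9 (-0.10 in batch 2) and Kcnk3 with the clock score (-0.0647 in batch 2). The cause of these changes was not tested.

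Replicate numbers did not pair the hearts: of 54 same-numbered pairs 10 had a correlation of deviations over 0.1, with a mean of -0.07 against 0.02 for other pairs. Leaving out each array for the F test, slopes and batch, and leaving out the 2 arrays for the correlations, were chosen after seeing the data.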
